A study of Homo sapiens with 9 samples.

Results

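The comparison covered open chromatin peaks shared by the FAIRE-seq lists labelled NS rottlerin and SW rottlerin. Peaks on chromosomes 1 to 22, X and Y were paired where they overlapped by 1 bp or more and each was the best-overlapping partner of the other. This gave 18847 pairs, which held 79.1% (95% Wilson interval 78.6 to 79.6) of the 23835 peaks labelled NS rottlerin and 62.0% (61.4 to 62.5) of the 30409 peaks labelled SW rottlerin. A further 51 and 52 peaks overlapped the other list without being a mutual best partner, and 4937 and 11510 peaks had no partner.

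The cells were Jurkat, a human T cell leukaemia line. NS cells were not stimulated, and SW cells (stimulus withdrawal) had been stimulated for 4 h with 24 ng/mL PMA, which activates protein kinase C, and 1 µM calcium ionophore, then washed and rested for 1 day. The 4 h is that of the sample records, and the study's methods give a shorter stimulation at these doses. Both labels name a 1 h pretreatment with 15 µM rottlerin, a small molecule used as a protein kinase C inhibitor, while the lists labelled NS DMSO and SW DMSO name the vehicle alone. Each label had 1 library, and all 4 lists were called against 1 total input, a genomic DNA control mixed from unstimulated and stimulated cells.

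The labels carry a doubt that precedes every value. The 4 lists together merged into 40731 regions. The study's methods give that same number of regions for a merge of its DMSO libraries alone, so a list may not hold the cell state or the drug that its label names. The lists are therefore called by their labels, and no difference is read as an effect of rottlerin or of stimulation. Of 10 T cell genes, 6 had a peak within 1 kb of a transcription start site (TSS) in the list labelled NS rottlerin and 7 in the list labelled SW rottlerin. The defining markers CD2 and CD7 had none in any of the 4 lists, and CD3G had none in either rottlerin-labelled list. In the 2 rottlerin-labelled lists, such a peak was found at no more than 2 of 6 B cell genes, 1 of 6 myeloid genes, 2 of 6 erythroid and megakaryocyte genes and 0 of 3 hepatocyte genes.

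FAIRE enriches DNA that is poor in nucleosomes, as at promoters and active enhancers. In T cells, PMA and ionophore stand in for the antigen receptor. PMA leads through protein kinase C to AP1 and NFkB, and ionophore leads through calcium and calcineurin to NFAT, which binds many cytokine enhancers beside AP1. ETS, RUNX and GATA factors occupy many T cell enhancers before stimulation. Loci opened by stimulation can stay open after its withdrawal, which is why such loci are studied as a chromatin memory.

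Sequences from both ends of the comparison are shown first. They were chosen because they hold AP1 and NFAT or ETS matches, so they do not show how often these occur. AP1 and NFAT matches together occurred in 6.27% of pairs higher in SW rottlerin and 1.01% of those higher in NS rottlerin. For an ETS match these shares were 11.1% and 15.9%. All were read from the plus strand of GRCh37 (Hg19), 120 bases each. The first 5 come from named pairs that ranked higher in the list labelled SW rottlerin and held both an AP1 match and an NFAT match no more than 120 bases apart. Capitals mark the letters TGACTCA (AP1) and TGGAAA (NFAT) on either strand. They lie in an intron of LRRC8B at chr1:90011284-90011403, an intron of SPRED2 at chr2:65604965-65605084, upstream of a TSS near TNFRSF9 at chr1:8009221-8009340, an intron of BACH2 at chr6:90994470-90994589 and an intron of LNX1 at chr4:54554478-54554597.
LRRC8B: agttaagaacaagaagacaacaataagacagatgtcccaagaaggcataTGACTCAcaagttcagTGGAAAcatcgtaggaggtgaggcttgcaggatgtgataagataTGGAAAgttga
SPRED2: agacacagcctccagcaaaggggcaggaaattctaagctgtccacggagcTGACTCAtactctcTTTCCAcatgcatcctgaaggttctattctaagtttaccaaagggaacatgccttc
TNFRSF9: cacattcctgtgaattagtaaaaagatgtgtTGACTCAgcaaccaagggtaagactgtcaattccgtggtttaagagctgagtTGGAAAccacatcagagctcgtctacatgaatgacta
BACH2: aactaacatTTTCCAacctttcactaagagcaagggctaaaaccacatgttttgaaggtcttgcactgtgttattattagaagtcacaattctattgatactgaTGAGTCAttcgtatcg
LNX1: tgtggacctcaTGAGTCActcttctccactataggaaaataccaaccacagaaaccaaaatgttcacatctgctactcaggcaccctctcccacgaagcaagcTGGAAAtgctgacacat

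The other 4 come from named pairs that ranked higher in the list labelled NS rottlerin and held a match to ACNGGAAG, the ETS sequence, which is in capitals on either strand. They lie in an intron of MYLK at chr3:123553531-123553650, in intergenic DNA nearest to IFNAR2 at chr21:34558310-34558429, in an intron outside any protein-coding gene nearest to KHDRBS1 at chr1:32447750-32447869, and in intergenic DNA nearest to ARHGAP20 at chr11:110708578-110708697. A match is a run of letters and was not shown to be bound.
MYLK: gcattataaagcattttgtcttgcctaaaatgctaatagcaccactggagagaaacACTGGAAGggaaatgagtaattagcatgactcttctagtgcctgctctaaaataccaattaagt
IFNAR2: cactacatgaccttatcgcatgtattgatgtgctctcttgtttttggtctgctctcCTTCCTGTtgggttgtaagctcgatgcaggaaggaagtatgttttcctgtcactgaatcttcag
KHDRBS1: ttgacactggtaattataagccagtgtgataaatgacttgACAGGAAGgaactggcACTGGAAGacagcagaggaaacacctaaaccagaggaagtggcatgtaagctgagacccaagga
ARHGAP20: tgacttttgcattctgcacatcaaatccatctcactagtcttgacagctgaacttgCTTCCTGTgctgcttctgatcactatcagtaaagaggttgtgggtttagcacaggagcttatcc

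Of the 18847 shared pairs, 14179 held a place in both lists that differed by less than 0.25 of the list. Strength was the fold enrichment over total input (column 7 of each list), taken as a quantile rank from 0 (weakest) to 1 (strongest) among all peaks of the same list, because the depth of the libraries is unknown. The rank shift is the rank in the list labelled SW rottlerin minus that in the list labelled NS rottlerin. Its median was 0.0268 with an SD over pairs of 0.225, its 5th and 95th percentiles were -0.333 and 0.437, and 42.8% of the pairs moved by less than 0.1 either way. Across pairs, the Spearman correlation of fold enrichment was 0.694. Over the 6 possible pairings of the 4 lists this correlation ran from 0.631 to 0.707, and the highest was that between the lists labelled SW DMSO and SW rottlerin. These points share 1 total input, and peaks are not replicates.

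A shift of 0.25 or more placed 2981 pairs (15.8% of 18847) higher in the list labelled SW rottlerin and 1687 (8.95%) higher in the list labelled NS rottlerin. The balance between these counts depended on the peaks among which ranks were taken. With ranks among the paired peaks alone, 2259 pairs ranked higher in SW rottlerin and 2337 in NS rottlerin. When the longer list was cut to as many peaks as the shorter, the strongest kept, 1776 pairs ranked higher in SW rottlerin and 2696 in NS rottlerin, and the median shift was -0.0159. The size of each count is therefore not a result, and what follows is about which loci were at each end. Where a fold enrichment at least 25% above that of its partner was asked for instead, 2383 pairs (12.6%) were higher in SW rottlerin and 1458 (7.74%) in NS rottlerin. Of the pairs called by shift, 66.4% and 72.0% were called by ratio too. With 1 library per label no test between the labels could be made, and all intervals given cover counting error only.

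**Figure D1:**
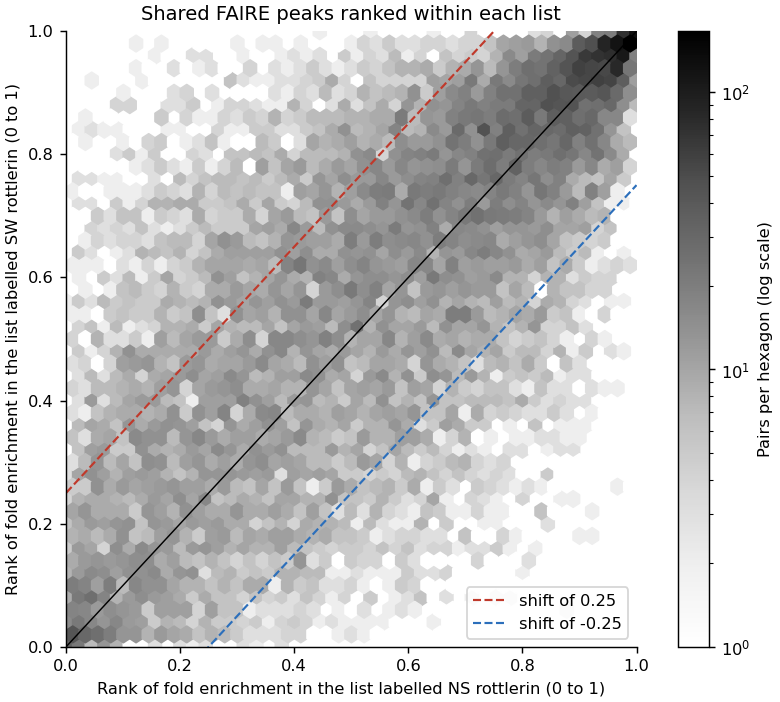
Each hexagon counts shared pairs by rank of fold enrichment in the list labelled NS rottlerin (x axis) and in the list labelled SW rottlerin (y axis), both from 0 to 1, with darker grey for more pairs on a log scale; the black line marks equal ranks and the dashed lines a shift of 0.25 either way. The strongest peaks gather in the upper right corner near equal ranks, 2981 pairs lie on or above the upper dashed line, and 1687 lie on or below the lower one.

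Pairs ranked higher in SW rottlerin went from a median rank of 0.279 in the list labelled NS rottlerin to 0.711, and from a median fold enrichment of 3.56 to 4.69. Pairs ranked higher in NS rottlerin went from 0.694 to 0.293, and from 4.66 to 3.56. The 5720 pairs ranked above 0.75 in NS rottlerin cannot by construction rank higher by 0.25, and the 3755 ranked below 0.25 cannot rank lower by 0.25. The NS rottlerin peak of the pairs higher in SW rottlerin had a median width of 253 bp against 328 bp for its partner, and these widths were 264 and 251 bp for the pairs higher in NS rottlerin. MACS2 averages fold enrichment over the width of a broad peak, and the part of width in these shifts was not tested. Among the 14428 pairs whose widths differed by less than 1.5 times, 1922 ranked higher in SW rottlerin.

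At the limit, the 3 pairs just inside the upper call (nearest to SHLD3, RFC3 and MAF) and the 3 just outside it (FAM240C, PIGV and SHB) all had a shift of 0.25 at this precision. The 3 just inside the lower call (BID, CHRNA9 and GPN2) lay between -0.251 and -0.25, and the 3 just outside it (RTP4, TCF3 and KLF7) at -0.25.

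Intron and intergenic sites were over-represented at both ends, and called pairs lay farther from a TSS. The mid-point of 66.8% (65.1 to 68.5) of the pairs higher in SW rottlerin and of 72.9% (70.7 to 74.9) of those higher in NS rottlerin fell in an intron or in intergenic DNA, against 56.5% of the pairs not called and 59.6% of all pairs. Promoter (1 kb before a TSS) and 5′UTR mid-points made up 19.1% (17.7 to 20.5) and 11.7% (10.2 to 13.3), against 28.9% of the pairs not called. The median distance to the nearest protein-coding TSS was 11107 bp for pairs higher in SW rottlerin, 17902 bp for pairs higher in NS rottlerin and 3189 bp for pairs not called. An intron took precedence over a promoter, so an intron mid-point can lie beside a TSS. A protein-coding TSS lay within 1 kb of 30.0%, 18.4% and 44.4%. Windows rich in CpG (over 50% GC with an observed to expected CpG ratio over 0.6) accounted for 27.2%, 14.6% and 41.6%. The promoter and 5′UTR share was lower at the NS rottlerin end than at the SW rottlerin end, and it was so too among pairs ranked from 0.25 to 0.75 in NS rottlerin, where both calls were possible (12.4% and 19.2%). When both lists had as many peaks, the shares were 15.7% and 16.2%, which were close together.

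**Figure D2:**
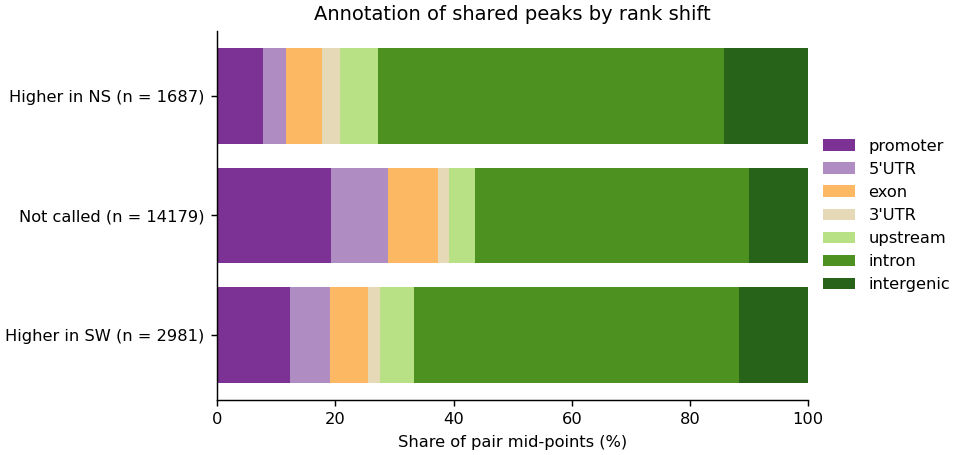
Stacked bars give the share of pair mid-points (x axis, percent) in each annotation class for the 2981 pairs higher in SW rottlerin, the 14179 not called and the 1687 higher in NS rottlerin. Introns and intergenic DNA fill 66.8%, 56.5% and 72.9% of the bars.

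Neighbouring pairs were compared with the 15.8% and 8.95% called over all pairs. Of the other pairs within 10 kb of a pair higher in SW rottlerin, 21.5% were also higher in SW rottlerin and 9.34% were higher in NS rottlerin. Of those within 10 kb of a pair higher in NS rottlerin, 12.4% were also higher in NS rottlerin and 16.4% were higher in SW rottlerin. Within 2 kb, 16.2% of 197 neighbours of a pair higher in SW rottlerin were also higher in SW rottlerin, and 21.1% of 95 neighbours of a pair higher in NS rottlerin were higher in SW rottlerin. The order thus differed between the 2 distances, and no test was made.

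The NFAT and AP1 sequences set the 2 ends apart. Each was counted once per pair if it occurred on either strand in the 300 bp around the mid-point of the overlap. TGGAAA, the core bound by NFAT, occurred in 30.0% (28.4 to 31.7) of the pairs higher in SW rottlerin, in 15.5% (13.9 to 17.3) of those higher in NS rottlerin and in 21.7% of all pairs. TGACTCA, the AP1 sequence bound by FOS and JUN dimers, occurred in 18.2% (16.9 to 19.6), 9.78% (8.45 to 11.3) and 11.9%. Both together occurred in 6.27%, 1.01% and 2.98%. Where both occurred, their first bases lay within 20 bp of each other in 29 of 187 windows higher in SW rottlerin, 1 of 17 higher in NS rottlerin and 32 of 357 not called, as in LRRC8B and SPRED2 above (16 and 14 bp).

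Both shares were lowest and highest at the ends of the shift, with little change near 0. NFAT matches occurred in 9.76% (6.64 to 14.1) of the 246 pairs with a shift of -0.5 or less, in 16.5% from there to -0.25, in 20.1% from there to -0.1, in 18.3% and 20.9% of the pairs on either side of 0, in 23.3% from 0.1 to 0.25, in 27.2% of those from 0.25 to 0.5 and in 42.0% (38.0 to 46.1) of the 567 with a shift of 0.5 or more. AP1 matches occurred in 7.72% (5.00 to 11.7) at the lower end, in 9.93% to 10.6% of each range from -0.5 to 0.1, and in 21.7% (18.5 to 25.3) at the upper end. GC content also moved along the shift, with a median of 44.7% and 47.0% at the 2 ends and 56.0% just above 0. Among windows under 50% GC, NFAT matches occurred in 39.7% of pairs higher in SW rottlerin, 17.3% of pairs higher in NS rottlerin and 29.0% of pairs not called, and AP1 matches in 23.4%, 10.9% and 17.4%. The NS rottlerin end therefore held fewer of both than pairs that were not called. Among intron and intergenic pairs, the NFAT shares were 33.2%, 16.3% and 24.2% and the AP1 shares 22%, 10.4% and 15.1%. Among pairs ranked from 0.25 to 0.75 in NS rottlerin they were 29.0%, 17.6% and 20.7% for NFAT and 18.8%, 9.55% and 11.9% for AP1.

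The NFkB consensus occurred in 6.14% (5.33 to 7.06) of pairs higher in SW rottlerin, 2.90% of pairs higher in NS rottlerin and 4.58% of all. The outermost ranges of shift did not show this order clearly, with 4.88% (2.81 to 8.33) at -0.5 or less and 5.996% (4.32 to 8.26) at 0.5 or more. The ETS sequence ACNGGAAG went the other way, at 11.1% (10.0 to 12.3), 15.9% (14.2 to 17.7) and 12.3%, and it reached 22% (17.2 to 27.5) at a shift of -0.5 or less. ETS and NFAT letters share the core GGAA but differ in the next base, so no core was counted as both. The GATA sequence AGATAA occurred in 21.2%, 27.4% and 19.1%, and the RUNX sequence TGTGGT in 36.2%, 39.1% and 31.0%. Under 50% GC, the GATA shares were 33.2%, 35.3% and, for pairs not called, 33.4%, and the RUNX shares 49.1%, 45.8% and 46.3%, so neither set the ends apart once GC-poor windows were compared. The E-box CATCTG occurred in 20.6%, 23.9% and 18.8%, CACCTG in 18.6%, 18.7% and 18.2%, and CAGCTG in 16.4%, 17.7% and 16.6%. The EGR sequence GCGNGGGCG occurred in 5.64%, 2.55% and 6.68%, and the CTCF consensus in 1.24%, 1.42% and 1.75%. Under 50% GC, the EGR shares were 0.129%, 0% and, for pairs not called, 0.18%. The EGR sequence was thus nearly absent from GC-poor windows, and the ends could not be compared among them.

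**Figure D3:**
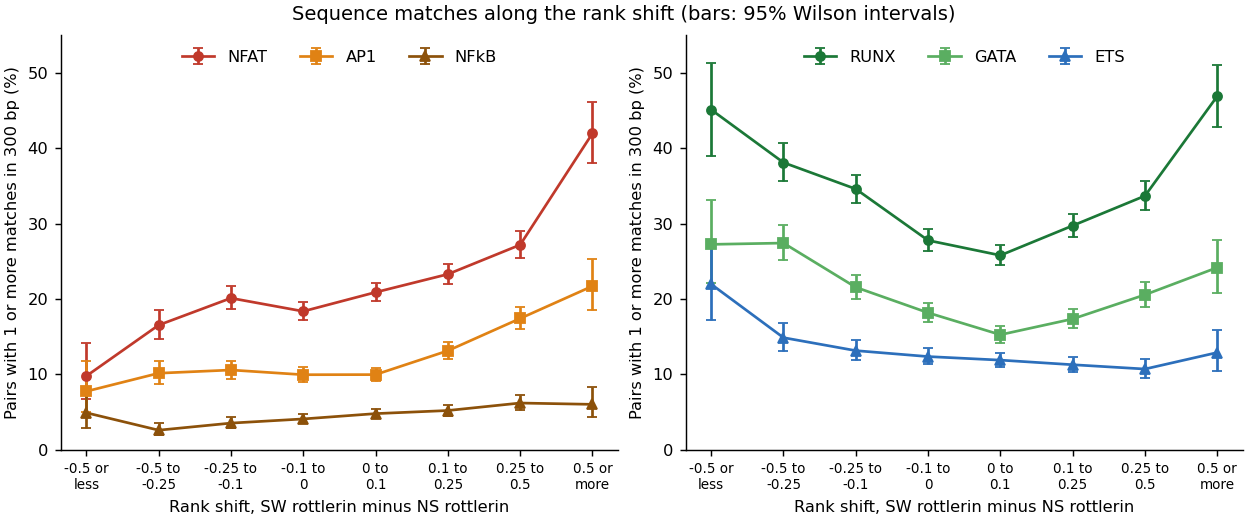
Points give the share of pairs with 1 or more matches in 300 bp (y axis, percent) in 8 ranges of rank shift (x axis, SW rottlerin minus NS rottlerin), with 95% Wilson intervals, for NFAT, AP1 and NFkB on the left and RUNX, GATA and ETS on the right. The NFAT share goes from 9.76% to 42.0% across the ranges, while RUNX and GATA are high at both ends and low near 0.

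The lists labelled DMSO took no part in the choice of pairs. Their median ranks differed in the same direction as the calls, with a wide spread. A peak of the list labelled SW DMSO overlapped 76.2% (74.6 to 77.7) of the pairs higher in SW rottlerin and 49.7% (47.3 to 52.1) of those higher in NS rottlerin. It overlapped 72.9% of all pairs and 74.9% of the pairs not called, so the SW rottlerin end was close to the latter. For the list labelled NS DMSO these 4 shares were 53.6% (51.8 to 55.4), 57.6% (55.2 to 60.0), 66.5% and 70.2%. Neither list had a peak at 17.7%, 29.9%, 18.2% and 16.9%. Where both had one, the median rank was 0.427 in NS DMSO and 0.514 in SW DMSO over 1417 pairs higher in SW rottlerin, and 0.561 and 0.401 over 628 pairs higher in NS rottlerin. Over all 10849 such pairs the medians were 0.640 and 0.635. The quartiles of the SW DMSO rank minus the NS DMSO rank were -0.117 and 0.241 for pairs higher in SW rottlerin. They were -0.310 and 0.0457 for pairs higher in NS rottlerin, so at each end many pairs went the other way. The DMSO-labelled lists hold 18977 and 20132 peaks and share the total input with the others.

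The 15 largest shifts toward SW rottlerin ran from 0.821 to 0.933. Of these pairs, 13 lay in introns and 2 in intergenic DNA, and 14 had a peak in the list labelled SW DMSO and 7 in that labelled NS DMSO. An NFAT match was held by 7, an ETS match by 2 and an AP1 match by 1. The SW rottlerin peak was the wider one in 12 of them.

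CLEC16A, an autoimmunity-associated gene with a role in mitophagy, held the largest shift and another of the 15, both in its introns. At chr16:11188160-11188905, 29.1 kb from the nearest TSS of a protein-coding CLEC16A transcript, fold enrichment was 2.68 in NS rottlerin and 6.36 in SW rottlerin, that is from rank 0.0124 to rank 0.945. The DMSO-labelled lists had 4.82 (NS) and 5.65 (SW) there, so the library labelled NS rottlerin was the low one of the 4. At chr16:11170314-11170533 the values were 3.12 and 6.45, with 4.55 in SW DMSO and no peak in NS DMSO.

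CRTAM, a receptor of activated T and NK cells, had an intronic pair at chr11:122727298-122727700 with both an AP1 and an NFAT match, at 2.73 in NS rottlerin, 5.91 in SW rottlerin, 4.97 in SW DMSO and no peak in NS DMSO. UBASH3B, which encodes a phosphatase that restrains T cell receptor signalling, had one in an intron at 2.78 and 5.38, with 3.09 in NS DMSO and 4.49 in SW DMSO. Both SW-labelled values were above both NS-labelled values there. SH3BP2, an adaptor of immune receptor signalling, had one 0.281 kb from its TSS at 2.77 and 5.67, with 3.40 in NS DMSO and no peak in SW DMSO.

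ETS1, a transcription factor of the T cell lineage, was the nearest gene to an intergenic pair 82.6 kb from the TSS of its nearest protein-coding transcript and 41.2 kb from that of any transcript, at chr11:128292571-128292735, with an NFAT match. Fold enrichment was 2.51 in NS rottlerin, 5.41 in SW rottlerin, 3.58 in NS DMSO and 4.05 in SW DMSO. ETS1 also had a pair in an intron, 6.50 kb from its TSS, at 3.35 and 4.76. Another of its intronic pairs, at chr11:128341294-128341610, went the other way, at 5.69 in NS rottlerin and 3.44 in SW rottlerin, with 6.27 in NS DMSO and 3.71 in SW DMSO. Loci of 1 gene thus moved in both directions.

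The rest of the 15 were nearest to FRMD4B, RIN2, SOX21, PTPN3, WFDC10A, FSBP, AGPAT5, ZNF775 and SMIM38. FRMD4B, a scaffold protein gene, was at 2.97 in NS rottlerin, 6.86 in SW rottlerin and 5.15 in SW DMSO, with no peak in NS DMSO. RIN2, a regulator of RAB5, was at 3.07, 7.56 and 5.76, again with none in NS DMSO. ZNF775, a zinc finger gene, was at 2.96 and 5.65, with 3.67 in NS DMSO and 5.72 in SW DMSO.

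By ratio, the largest change was in the first intron sequence shown above, in LRRC8B, which encodes a subunit of volume-regulated anion channels. Fold enrichment was 3.63 in NS rottlerin and 9.83 in SW rottlerin, a ratio of 2.71, with 7.59 in SW DMSO and no peak in NS DMSO. LNX1, a ubiquitin ligase gene, followed at 3.67 and 9.24 (ratio 2.52) with 6.35 in SW DMSO. GALNT5, a glycosyltransferase gene, was at 4.17 and 10.3 (ratio 2.47) with 6.54 in SW DMSO. RIN2 and CLEC16A completed the 5. Neither LNX1 nor GALNT5 had a peak in NS DMSO at these loci.

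The 15 largest shifts toward NS rottlerin ran from -0.820 to -0.710 and were less uniform. They comprised 9 introns, 2 intergenic and 2 upstream sites, 1 promoter and 1 exon. A peak was present at 11 in the list labelled NS DMSO and at 6 in that labelled SW DMSO. An ETS match was found in 3 of them, an NFAT match in 1 and an AP1 match in 1. ETS and AP1 matches were thus about as frequent as at the other end. The SW rottlerin peak was the wider one in 2.

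PIK3CG, which encodes the gamma catalytic subunit of PI3-kinase in leukocytes, was the promoter, 12 bp before its TSS at chr7:106505603-106505819. Fold enrichment was 5.03 in NS rottlerin and 2.69 in SW rottlerin, and neither DMSO-labelled list had a peak. IFNAR2, an interferon receptor subunit, lay 19.2 kb from a pair at 6.65 and 3.48, with 3.65 in NS DMSO and no peak in SW DMSO. MMP9, a matrix protease, had one 3.60 kb upstream at 5.87 and 3.31, with 3.49 in SW DMSO and no peak in NS DMSO. At MMP9 and PIK3CG the high library, NS rottlerin, was thus not joined by NS DMSO.

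DYNC1I1, a dynein intermediate chain gene, held the most negative shift, -0.820, in an intron at chr7:95604261-95604697. Fold enrichment was 5.59 in NS rottlerin, 2.95 in SW rottlerin and 4.56 in NS DMSO, with no peak in SW DMSO. SLC24A3, a sodium, potassium and calcium exchanger gene, had the largest ratio, 2.33, at 8.09 and 3.47. The NS DMSO value there was 3.75, near the lower of the pair. TLK1, a kinase of chromatin assembly, was at 5.63 and 2.99 with 3.31 in NS DMSO, and MYLK, the myosin light chain kinase, at 5.56 and 3.02 with no peak in either DMSO-labelled list. The others were nearest to ANKFN1, EVPL, TMEM132C, ARHGAP20, FGGY, LAMA4, NDRG1 and DIAPH3. KHDRBS1, GRIP1 and B3GALNT1 joined SLC24A3 and IFNAR2 by ratio, at 1.96, 1.91 and 1.90.

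**Figure D4:**
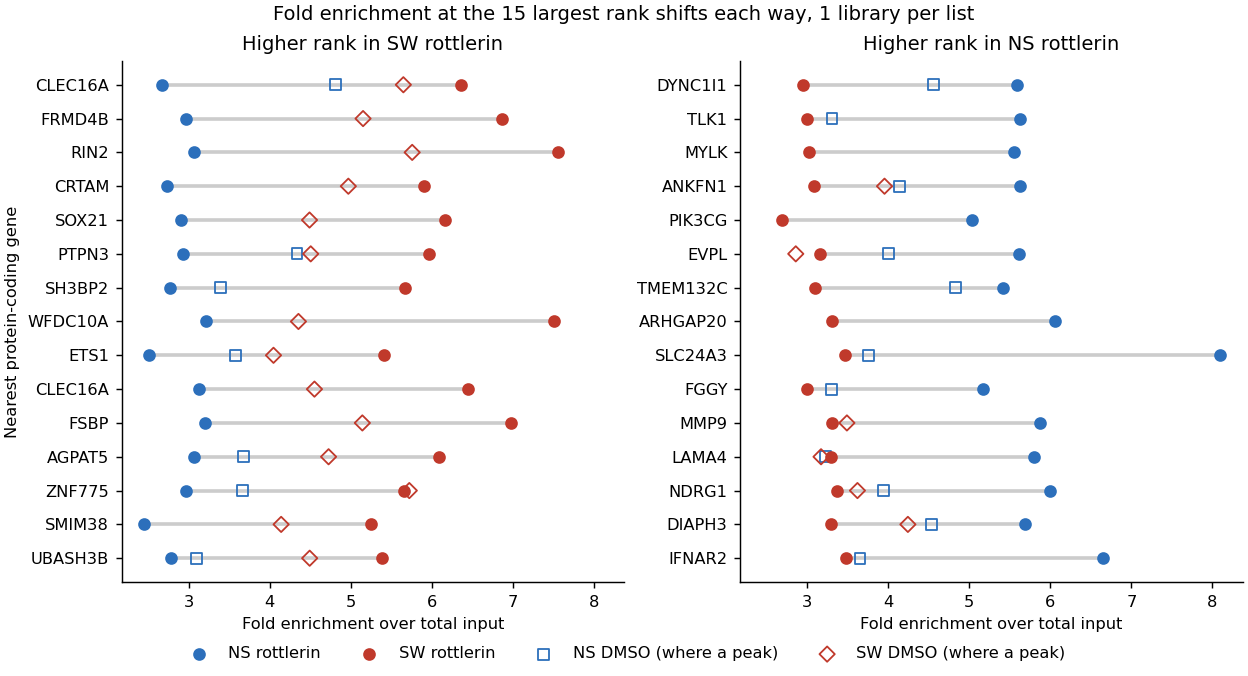
Fold enrichment over total input (x axis) at the 15 pairs with the largest rank shift toward SW rottlerin (left) and toward NS rottlerin (right), by nearest protein-coding gene, with filled circles for the rottlerin-labelled lists and open symbols for the DMSO-labelled lists where these had a peak. On the left 14 loci have an SW DMSO symbol and 7 an NS DMSO symbol, and on the right 6 and 11 do.

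Some genes were nearest to several moved peaks. Of 1882 genes nearest to 3 or more pairs, 92 had 3 or more higher in SW rottlerin and 26 had 3 or more higher in NS rottlerin. Over all pairs, 15.8% were higher in SW rottlerin and 8.95% in NS rottlerin. The balance of 92 against 26 rests on the same calls and is not a result either. A gene with many pairs can also reach 3 by number alone. No pair was called the other way at 59 of the 92 and at 11 of the 26. The nearest gene can be far away, as at PTPRC, whose 27 pairs reached 563 kb from its TSS.

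HBS1L, whose intergenic region with MYB holds well-known haematopoietic enhancers, had 7 of 10 pairs higher in SW rottlerin and 0 higher in NS rottlerin. BACH2, a repressor that keeps lymphocytes from effector differentiation, had 6 of 13 and 0. Its intronic pair with AP1 and NFAT matches, printed above, was at 3.01 in NS rottlerin, 4.90 in SW rottlerin and 3.93 in SW DMSO, with no peak in NS DMSO. ITPR1, the calcium release channel of the endoplasmic reticulum, had 6 of 10 and 0, among them introns at 2.71 and 4.65 and at 3.16 and 5.13. IRF4, a factor induced by the antigen receptor, had 5 of 6 and 0, and HPCAL1, a calcium sensor gene, 5 of 5. The IRF4 pairs stretched to 118 kb from its TSS.

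RGS6 (7 of 19), BCOR (6 of 14), AKAP13 (5 of 11) and LDLRAD4 (5 of 12) made up the rest of the first 10 with PTPRC. RGS6 also had 2 pairs higher in NS rottlerin, and BCOR and AKAP13 had 1 each. PTPRC, which encodes CD45, had 7 higher in SW rottlerin and 4 higher in NS rottlerin, with a median shift of 0.00, so it was at neither end as a whole.

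At the other end, PIP4K2A, a lipid kinase gene, had 4 of 9 pairs higher in NS rottlerin and 0 higher in SW rottlerin. BCL11B, which keeps T cell identity, had 3 of 10 and 0, with shifts from -0.695 to 0.0990. None of the 3 pairs within 50 kb of its TSS was called, so the called ones lay farther away. NXN and MTCL1 had 3 of 4, ZDHHC20 3 of 5, RIPOR2 3 of 8, MAP3K7 3 of 8 with 1 the other way, and FOXN3 4 of 10 with 1 the other way.

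Gene lists of T cell activation were described by the pairs within 50 kb of a TSS of their genes, against 15.8% and 8.95% over all pairs. The EGR, NR4A and NFAT list had 15 of 44 pairs (34.1%, interval 21.9 to 48.9) higher in SW rottlerin and 3 higher in NS rottlerin. The NFkB list had 17 of 57 (29.8%, 19.5 to 42.7) and 2, and the lymphocyte fate factor list 27 of 116 (23.3%, 16.5 to 31.7) and 7. The cytokine and chemokine list had 13 of 51 (25.5%, 15.5 to 38.9) and 3, and the list of phosphatase, SOCS and other feedback genes 18 of 83 (21.7%, 14.2 to 31.7) and 2. The AP1 and ATF list had 11 of 56 (19.6%) and 2, and the bHLH, ID and ZEB list 11 of 62 (17.7%) and 8. The activation receptor list, 15 of 87 (17.2%) and 8, the T cell receptor signalling list, 17 of 114 (14.9%) and 10, and the ETS, GATA and RUNX list, 11 of 87 (12.6%) and 6, were close to all pairs. Ribosomal protein genes, a comparison list, had 27 of 220 (12.3%, 8.57 to 17.3) and 13. Median shifts were 0.11 for the EGR, NR4A and NFAT list, 0.0961 for cytokines, 0.0654 for NFkB and 0.0335 for ribosomal protein genes, against 0.0268 over all pairs. Pairs near 1 gene are not independent, the lists were chosen with earlier results of these data known, and no test was made.

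**Figure D5:**
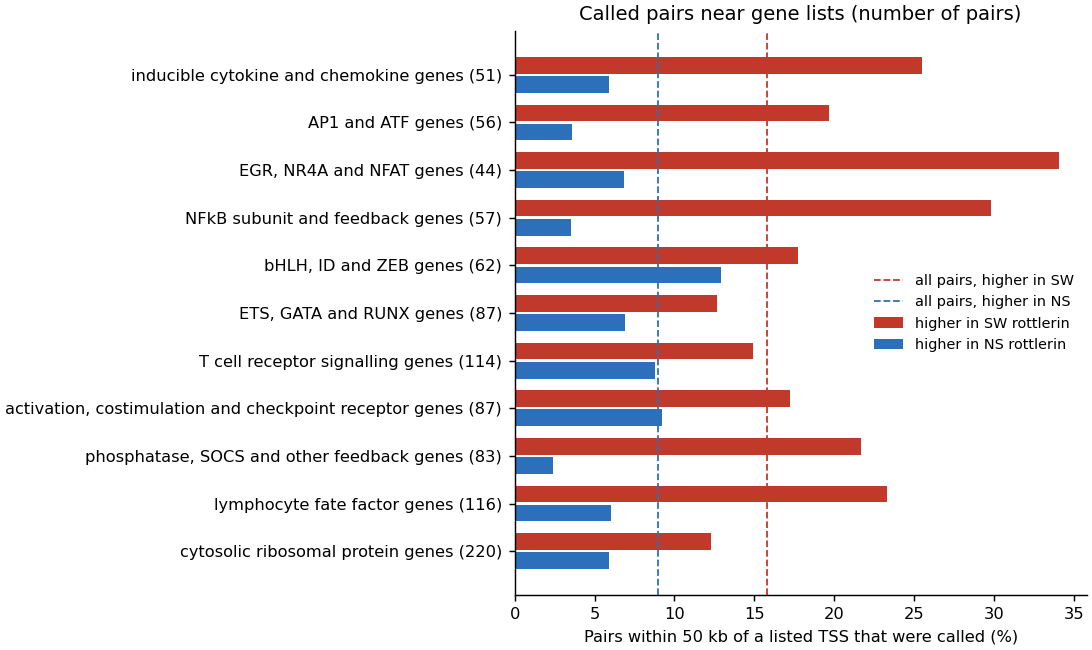
Bars give the share of pairs within 50 kb of a listed TSS (x axis, percent; number of pairs in brackets) that ranked higher in SW rottlerin (red) or in NS rottlerin (blue), and dashed lines give the same over all pairs, 15.8% and 8.95%. The red bar of the EGR, NR4A and NFAT list reaches 34.1% and that of the ribosomal list 12.3%.

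Among ligands, FASLG, the death ligand of activated T cells, had a pair 11.7 kb upstream at chr1:172616426-172616638 with an NFAT match. Fold enrichment was 3.26 in NS rottlerin, 6.02 in SW rottlerin, 3.38 in NS DMSO and 4.76 in SW DMSO, so both SW-labelled values exceeded both NS-labelled ones. FASLG also had 1 of its 9 pairs higher in NS rottlerin. TNFSF14, which encodes the ligand LIGHT, had 2 named pairs with NFAT matches, at 3.36 and 6.28 and at 3.23 and 5.10. The first had no peak in either DMSO-labelled list, and the second had 3.20 in SW DMSO and no peak in NS DMSO. XCL2, a chemokine gene, had one at 2.79 and 4.73, but 1 of its 2 pairs ranked higher in NS rottlerin.

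Among receptors, CD27, a costimulatory receptor, was 17.8 kb from a pair at 3.31 and 7.21 with 5.09 in SW DMSO. IL2RA, the high-affinity chain of the interleukin 2 receptor, had an intronic pair with an NFAT match at 3.17 and 5.05 with 4.87 in SW DMSO, and of its 7 pairs 2 ranked higher in SW rottlerin and 1 in NS rottlerin. TNFRSF9, the costimulatory receptor 4-1BB, was 6.07 kb from the pair printed above, at 3.26 and 5.39 with 3.85 in NS DMSO and 4.80 in SW DMSO, though PARK7 has the nearest TSS. ICOS, a costimulatory receptor, had one in an intron at 2.88 and 4.55 with 3.28 in NS DMSO and no peak in SW DMSO. CD69, an early activation marker, had 6 pairs and none was called. IL7R had 2 of 3 pairs higher in NS rottlerin and 1 higher in SW rottlerin, and HAVCR2 had 1 of 5 and 0.

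Among signalling genes, members went both ways. ZAP70, the kinase recruited by the T cell receptor, had a pair 2.49 kb upstream with an NFAT match at 3.04 and 4.86, and CD247, the receptor's zeta chain, one in an intron at 2.79 and 4.19. Neither DMSO-labelled list had a peak at the ZAP70 pair. The CD247 pair had 2.89 in SW DMSO, at a rank of 0.0418, and no peak in NS DMSO. The protein kinase C genes PRKCQ and PRKCB had intronic pairs that ranked higher in NS rottlerin, at 5.23 and 3.41 and at 5.05 and 3.36. For PRKCQ the DMSO-labelled lists had 3.70 (NS) and 3.97 (SW), which did not separate in that way. PRKCB also had 1 of its 8 pairs higher in SW rottlerin.

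Among transcription factors, NFATC3 had a TSS 24.8 kb from a pair with an NFAT match at 3.32 and 6.57, which lies in an intron of DUS2, and NFATC1 had one in its own intron at 3.43 and 4.91. RCAN1, an inhibitor of calcineurin and itself a known NFAT target, was 15.6 kb from one with an NFAT match at 3.47 and 4.96. Neither DMSO-labelled list had a peak at the NFATC3 and RCAN1 pairs. The NFATC1 pair had 3.76 in SW DMSO and no peak in NS DMSO. NR4A1, an immediate early nuclear receptor, had one 0.063 kb from its TSS at 3.36 and 5.61, with 3.99 in NS DMSO and 4.54 in SW DMSO. JUND was 8.88 kb and 23.1 kb from pairs at 3.02 and 4.59 and at 3.24 and 4.82. The TSS nearest to the second of these is that of LSM4, 18.4 kb away. Pairs within 50 kb of MAFK and FOSB lay beside the TSSs of INTS1 and VASP. TCF7, a factor of naive and memory T cells, had one 9.22 kb upstream at 3.13 and 5.13 with NFAT, ETS and GATA matches, while its DMSO-labelled values, 3.31 and 3.49, were close together. MXI1, BHLHE40, ID4, IRF4 and PRDM8 also had named pairs higher in SW rottlerin. Other members of the bHLH, ID and ZEB list went the other way. ID3 had 3 of 8 pairs higher in NS rottlerin and 0 higher in SW rottlerin, and ID1, ID2 and TAL1 each had 1 and 0. NFATC1, NR4A1, JUND, FOSB, TCF7 and MXI1 each had 1 pair within 50 kb that ranked higher in NS rottlerin. RUNX1 had an intronic pair at 3.16 and 4.30, but the DMSO-labelled lists had the opposite order there, with 5.53 (NS) and 3.61 (SW).

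Among feedback genes, NFKBIA, the inhibitor of NFkB, had 3 of 3 pairs higher in SW rottlerin, the largest 12.3 kb upstream at 3.23 and 5.41 with 4.52 in SW DMSO. BCL3, an atypical inhibitor of the same family, had one at 2.98 and 4.64, and TNFAIP3, the enzyme A20 that limits NFkB signalling, one 47.3 kb away at 2.92 and 4.52. The BCL3 pair had 2.92 in NS DMSO and 3.27 in SW DMSO, and neither list had a peak at the TNFAIP3 pair. The pair listed for TNIP2 was that of SH3BP2. DUSP6, a phosphatase that inactivates ERK, was 23.5 kb from a pair with an NFAT match at 3.08 and 5.34, DUSP5 1.39 kb from one with an NFAT match at 2.85 and 4.99, and DUSP2 3.22 kb from one with an AP1 match at 3.16 and 4.82. SPRED2, an inhibitor of the RAS pathway, had the intronic pair printed above at 3.65 and 5.92, with 4.88 in SW DMSO. None of the named DUSP and SPRED2 pairs had a peak in NS DMSO, and the DUSP6 pair had none in SW DMSO either.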

How the data were processed

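FAIRE-seq was measured in Jurkat cells, with 9 samples in the series, of which 4 had a peak list used here and 5 were not analysed here. Per the labels, the authors trimmed reads with cutadapt, aligned them with Bowtie2 to Hg19, used Picard and HTSeq, and called broad peaks with MACS2 against the total input, with versions not given in the sources used here. The deposited lists hold a score (column 5, the whole part of 10 times column 9 for at least 99.9874% of the peaks of each list), fold enrichment as a ratio (column 7), −log10 p (column 8) and −log10 q (column 9). Read depth is unknown, which limits precision in an unknown degree. The deposited lists hold peaks up to a q-value near 0.1, whereas the study's methods give a cut-off of 0.05. Each list held from 163 to 427 peaks above 0.05.

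From these files, peaks were paired and ranked in Python 3.11.15 with pandas 2.3.3 and numpy 2.4.6. Ties took the average rank, less 0.5, divided by the number of peaks. Mid-points of the overlap were classified by GENCODE release 44 lifted to GRCh37, a UTR or exon taking precedence over an intron, an intron over a promoter (within 1 kb) and a promoter over upstream (to 10 kb). Windows were read from the GRCh37 genome with pysam 0.24.0. The scripts were tested on simulated lists. Named loci were the 15 largest shifts and 5 largest ratios each way, genes nearest to 3 or more pairs called in 1 direction (up to 10 each way), up to 4 called pairs per gene list, and 3 pairs on each side of each limit. The members, lists and sequences were chosen with earlier results of these data known. The alternatives tried are given in the closing section. Shares among GC-poor, intron and intergenic, or mid-ranked pairs, and all alternatives for NFAT, were added after the data were seen. A gene that the naming rule also chose is not reported here.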

Additional observations from a re-analysis of the deposited data

How the results depend on the processing

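There were 13 alternatives and 16 results. The 179 values under an alternative stayed within the interval of the reported value, or for counts within 1.5 times of it, in 124 cases and left it in 55. The share with an NFAT match, the share with an AP1 match and the share with a peak in the list labelled SW DMSO were higher for pairs higher in SW rottlerin under every alternative run, by 9.56 to 19.1, 5.32 to 10.2 and 21.9 to 27.7 percentage points. No paired analysis was possible because each label has 1 library. The unknown depth and the lack of a second library per label limit every value.

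The number of pairs ran from 14428 to 18899. In what follows, SW and NS stand for pairs ranked higher in SW rottlerin and in NS rottlerin. With as many peaks in both lists (the strongest of the longer list), the median shift turned to -0.0159, with 1776 SW and 2696 NS pairs. The SW shares were then 70.0% intron or intergenic, 16.2% promoter or 5′UTR, 20.045% AP1, 34.1% NFAT, 51.7% NS DMSO and 80.5% SW DMSO. The NS shares were 68.9% intron or intergenic, 15.7% promoter or 5′UTR, 18.3% NFAT, 60.9% NS DMSO and 58.6% SW DMSO. The higher intron and intergenic share of NS pairs was thus lost, and the cause was not tested. With ranks among the paired peaks alone, the median shift was -0.00048, with 2259 SW and 2337 NS pairs, since the same pairs are ranked on both sides. The SW shares were 68.7% intron or intergenic, 17.1% promoter or 5′UTR, 32.1% NFAT and 79.8% SW DMSO, and the NS shares 61.4% NS DMSO and 54.6% SW DMSO.

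With column 9 and column 8 as the strength, the median shift was 0.0301 and 0.0301. The SW shares were 69.4% and 69.3% intron or intergenic, 16.3% and 16.4% promoter or 5′UTR, 48.8% and 48.8% NS DMSO, and 73.7% and 73.7% SW DMSO, and the NS share of promoter or 5′UTR was 9.74% and 9.82%. With a reciprocal overlap of 50% the SW share of NFAT was 28.1%. Among pairs whose widths differed by less than 1.5 times, the median shift was 0.0226 with 1922 SW pairs, and the SW shares were 62.5% intron or intergenic, 22.4% promoter or 5′UTR, 15.6% AP1, 25.1% NFAT and 58.2% NS DMSO. With calls by ratio, the SW shares were 19.8% AP1, 33.4% NFAT, 56.3% NS DMSO and 81.8% SW DMSO, and the NS shares 63.0% NS DMSO and 55.6% SW DMSO. With promoters placed first, intron or intergenic made up 55.9% (SW) and 64.8% (NS), and promoter or 5′UTR 33.5% and 22.6%. In 500 bp, AP1 matches occurred in 21.6% and 12.9%, and NFAT matches in 43.2% and 31.1%. Elsewhere the cause was not tested.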
